A study of Homo sapiens with 12 samples.

Results

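Cells of LNCaP, an androgen-dependent human line from prostate cancer, were treated with R1881 and Torin 1 together, and their RNA was compared with that of cells given the 2 solvents alone. The comparison uses 6 of the 12 expression arrays of the series, chosen by the sample labels. There were 3 arrays of cells with both drugs (100 nM Torin 1 and 10 nM R1881) and 3 of cells with vehicle (ethanol and DMSO). All cells, vehicle included, were first kept for 48 h in medium without phenol red and with serum stripped of steroids, and the treatments then lasted 48 h. The other 6 arrays, 3 with R1881 alone and 3 with Torin 1 alone, entered the same fit and are used where the effect of both drugs is set beside that of each. The labels call the samples triplicates but do not say that they came from separate cultures, so p-values measure only the spread between these samples. All values are for n = 3 arrays per group.

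R1881 is a synthetic androgen that is hardly metabolized in culture. Androgens switch on secretory and metabolic genes of the prostate, among them KLK3, which encodes prostate-specific antigen, and switch others off. Torin 1 blocks the kinase activity of mTOR, which works in a pair of complexes: mTORC1 drives protein, lipid and nucleotide synthesis and holds back autophagy, and mTORC2 activates AKT and SGK1.

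The genes described are the 11517 with a named probe detected (detection p below 0.05) on 3 or more of the 12 arrays. Levels are background-corrected, quantile-normalized log2 signals, and a difference is the mean of the arrays with both drugs minus the mean of the vehicle arrays. A gene is called when limma's p, adjusted by Benjamini-Hochberg over all 11517 genes, is under 0.05. By that rule 5851 genes (50.8%) differed, 2613 higher (22.7%) and 3238 lower (28.1%) with both drugs. These shares are the background for the counts of each gene list below. Which direction held more genes depended on the scaling: with median scaling in place of quantile normalization 3139 were higher and 2877 lower, and the median log2 difference of all genes was 0.06 instead of -0.02. The median absolute log2 difference was 0.28, and 2619 of the called genes (22.7% of those tested) differed at least 1.5-fold, 1129 of them higher and 1490 lower. At least 4-fold differences were found in 127 genes that rose and 141 that fell. In 6580 genes (57.1%) the arrays with both drugs lay entirely above or entirely below the vehicle arrays. In 142 genes called higher the vehicle arrays detected nothing above background, and in 375 called lower the arrays with both drugs did not, so their folds are given as lower bounds.

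**Figure D1:**
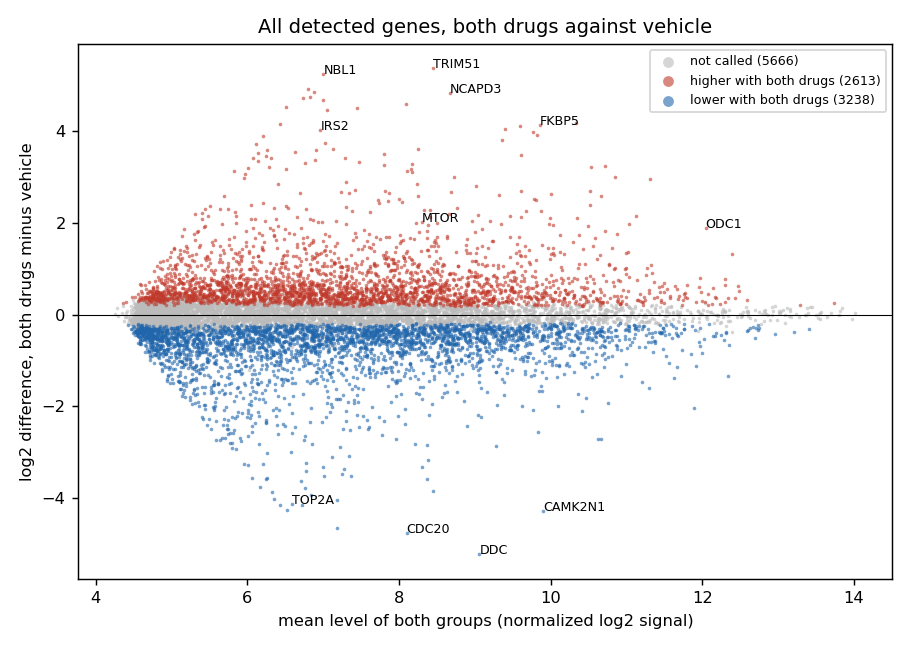
Difference between both drugs and vehicle (vertical axis, log2) against the mean level over the 6 arrays (horizontal axis, log2 signal), a point for each of 11517 genes. The 2613 genes called higher and the 3238 called lower are coloured. The named points run from TRIM51 (5.37) to DDC (-5.23), with others such as MTOR and ODC1 in between.

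Arrays within a group were alike, with r of at least 0.9924 among those with both drugs and at least 0.9936 among vehicle arrays. Between 16681 and 17195 probes were detected on the arrays with both drugs, and between 17683 and 18868 on the vehicle arrays. The part of this in any result was not tested. Over the 6 arrays the first principal component, which parted the 2 groups, held 87.6% of the variance. The root mean square log2 difference over all genes was 0.69 for both drugs against vehicle, 0.497 for R1881 against vehicle and 0.417 for Torin 1 against vehicle. Those 3 comparisons use the same vehicle arrays. In bulk RNA such as this, fewer cells of a type and less RNA per cell cannot be told apart.

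The largest rises were in genes of varied kinds. TRIM51, a member of the TRIM family of ubiquitin ligases, stood at 11.12, 11.15 and 11.13 with both drugs, against 5.71, 5.74 and 5.86 with vehicle, a 41.3-fold rise (log2 5.37, SE 0.0882, limma adjusted p = 5.13e-14). Its relatives TRIM49D1 and TRIM49D2 were not detected with vehicle and were at least 24.3-fold and 16.8-fold higher with both drugs. TRIM48 had log2 levels of 9.44, 9.20 and 9.38 with both drugs and 4.73, 4.83 and 4.43 with vehicle, where 1 of 3 arrays detected it. These family members are near copies of each other in sequence, so their probes may read each other's RNA. The probe for GRM5P1, a pseudogene of a glutamate receptor, read 9.08, 9.09 and 9.13 with both drugs and was undetected with vehicle, at least 21-fold apart.

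NBL1, a secreted antagonist of BMP ligands, read 9.71, 9.63 and 9.55 with both drugs and 4.32, 4.38 and 4.44, undetected, with vehicle, at least 30.3-fold higher; its other probe gave a log2 difference of 4.21. ANGPT2, a ligand of the endothelial receptor TIE2, was at least 23.5-fold higher. MERTK, a receptor kinase for the uptake of dying cells, measured 10.28, 10.51 and 10.40 with both drugs, against 5.65, 5.90 and 5.85 with vehicle (log2 4.59, SE 0.0955, limma adjusted p = 2.07e-13). The prostaglandin E2 receptor gene PTGER4 rose 22.5-fold, and HPGD, whose enzyme inactivates prostaglandins, was undetected with vehicle and rose at least 22.5-fold. RHOU, a small GTPase, read 12.35, 12.45 and 12.47 with both drugs against 8.2, 8.22 and 8.34 with vehicle. In each of the genes of these 2 paragraphs the lowest array with both drugs lay above the highest vehicle array, which was a condition of their choice.

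**Figure D2:**
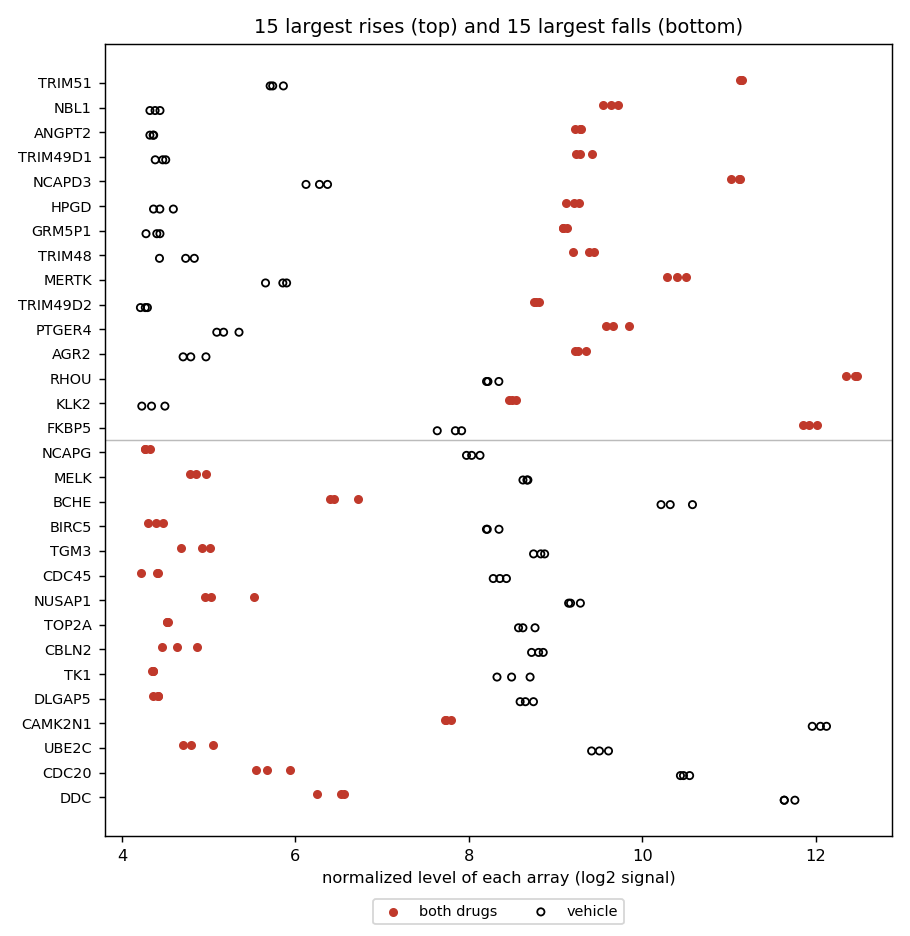
Level on each array (horizontal axis, log2 signal) for the 15 genes with the largest rises and the 15 with the largest falls, with both drugs (filled) and vehicle (open). In every gene shown the 3 arrays of a group lie together and apart from the other group, also for NUSAP1, where 1 array with both drugs (5.52) stands above the other two.

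Androgen-induced genes were the list that stood highest. From 47 listed genes 42 were measured, and 39 rose, 2 fell and STEAP1 was not called (log2 -0.03). Their median log2 difference was 2.94, or 2.83 with the 9 members undetected in vehicle set at their bounds, against -0.02 over all genes tested. TMPRSS2, a membrane serine protease, measured 11.31, 11.45 and 11.49 with both drugs and 7.39, 7.30 and 7.41 with vehicle, 16.5-fold higher (limma adjusted p = 1.82e-13). KLK3 read 8.22, 8.09 and 7.88 with both drugs and was undetected on all 3 vehicle arrays, at least 10.2-fold higher, and the related protease gene KLK2 rose at least 13.8-fold. FKBP5, a co-chaperone of steroid receptors, stood at 11.85, 12.01 and 11.92 with both drugs against 7.63, 7.92 and 7.84 with vehicle. NDRG1, a stress-regulated growth inhibitor, rose 15.8-fold, ERRFI1, a feedback inhibitor of the EGF receptor, 15-fold, and PMEPA1, which dampens TGF-beta signalling, 12.2-fold, though the other probes of PMEPA1 gave log2 differences of 0.31 and 3.36.

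The largest measured difference in the list was that of NCAPD3, a subunit of condensin II, which compacts chromosomes. It stood at 11.13, 11.02 and 11.12 with both drugs, against 6.12, 6.28 and 6.37 with vehicle (log2 4.83, SE 0.0844). The members that fell were ACP3, prostatic acid phosphatase (log2 -0.81), and TRPV6, a calcium channel (log2 -1.54), detected on 1 of 3 arrays with both drugs and with its other probe at -0.01. ODC1, the first enzyme of polyamine synthesis, rose 3.68-fold, to 12.95, 13.10 and 12.91 with both drugs against 11.15, 11.20 and 10.96 with vehicle, and GNMT, which consumes S-adenosylmethionine, rose 9.88-fold.

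To show the sequence near the starts of androgen-induced genes, the RefSeq promoters of build GRCh38.p14 (250 bases before to 50 after the gene start) were searched on both strands for the androgen response element half-site AGAACA. It stood in 6 of the 35 members with a promoter in that set (17.1%), against 9.15% of the promoters of 9279 tested genes. The full element in its exact letters, AGAACA followed after 3 bases by TGTTCT, was in none of either. Full elements that depart from these letters were not searched for, so the search cannot show that a promoter lacks one. Below are the windows around the half-site of KLK3 and FKBP5, with the half-site in capitals.
KLK3, chr19:50854720-50854775, plus strand: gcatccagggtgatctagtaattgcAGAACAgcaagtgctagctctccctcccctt
FKBP5, chr6:35728553-35728608, minus strand: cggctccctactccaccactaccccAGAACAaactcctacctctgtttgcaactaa

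Androgen-repressed genes mostly fell, with large exceptions. Of 31 listed genes 27 were measured, and 16 fell, 10 rose and MET was not called (log2 0.09), with a median of -1.92. With R1881 alone against vehicle the median of the 27 was -1.98, against -0.03 over all genes tested. The largest fall of all 11517 genes was in DDC, an enzyme of dopamine and serotonin synthesis, at 6.53, 6.56 and 6.25 with both drugs against 11.64, 11.64 and 11.76 with vehicle, 37.5-fold lower (limma adjusted p = 1.84e-13). CAMK2N1, an inhibitor of the calcium-dependent kinase CaMKII, read 7.80, 7.74 and 7.72 with both drugs and 12.05, 12.12 and 11.96 with vehicle. CBLN2, a synapse organizer, TGM3, a transglutaminase, and BCHE, butyrylcholinesterase, had log2 differences of -4.14, -3.94 and -3.85. CBLN2 was detected on 1 of the 3 arrays with both drugs and TGM3 on 2, so both levels there lie near the background. GRB10, an adaptor that inhibits the insulin receptor, fell 7.19-fold, and its other probes gave -3.16 and -1.06.

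The UGT2B genes, whose enzymes attach glucuronic acid to steroids, split within that list. UGT2B17, which inactivates androgens, read 9.36, 9.20 and 9.24 with both drugs against 11.94, 11.98 and 12.02 with vehicle, 6.55-fold lower. UGT2B15, which does the same, stood at 8.32, 8.56 and 8.77 with both drugs against 11.05, 11.10 and 11.18 with vehicle, 5.89-fold lower. UGT2B28 and UGT2B11 rose 14-fold and 9.23-fold, and the other probe of UGT2B11 gave a log2 difference of 1.68. UGT2B10 was also higher (0.89). These genes resemble each other in sequence, and a probe may read more than 1 of them. The cytokine receptor gene LIFR, also listed as repressed, rose by 3.53 on the log2 scale over a vehicle level that 2 of 3 arrays detected. Over the list of steroid-metabolizing enzymes 23 of 35 were measured, 5 rose and 8 fell, or 6 and 6 with median scaling.

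The mitosis list fell as a whole. All 63 measured genes of 67 listed were called lower, against 28.1% of all genes, with a median log2 difference of -2.39, or -2.19 with the 29 members undetected in the cells with both drugs set at their bounds. CDC20, which activates the anaphase-promoting complex, read 5.93, 5.54 and 5.67 with both drugs and 10.44, 10.47 and 10.54 with vehicle, 27.3-fold lower (limma adjusted p = 3.60e-13). UBE2C, which brings ubiquitin to that complex, fell by 4.66 on the log2 scale, with 1 of 3 arrays with both drugs above background, but its other probe gave -0.30. DLGAP5, a spindle protein, was undetected with both drugs, against 8.59, 8.65 and 8.74 with vehicle, at least 14.6-fold lower, and TOP2A, the topoisomerase that untangles sister chromatids, was at least 14.5-fold lower. NUSAP1, a spindle microtubule protein, measured 5.52, 5.02 and 4.96 with both drugs against 9.15, 9.17 and 9.28 with vehicle, and its other probe gave a log2 difference of -2.68. For BIRC5, survivin, the fall was at least 11-fold, and its other probe gave -0.66.

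The members that fell least were also called. BUB3, a spindle checkpoint protein used in interphase too, differed by -0.38, NCAPD2, a condensin I subunit, by -0.61, and ESPL1, separase, was undetected with both drugs and at least 1.09-fold lower. NCAPG, another condensin I subunit, was undetected with both drugs and at least 9.52-fold lower, and the shared condensin subunits SMC2 and SMC4 had log2 differences of -1.18 and -1.43. The condensin II gene NCAPD3, described above, moved the other way. With median scaling in place of quantile normalization 62 of the 63 were called lower.

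Many mitotic promoters carry the cell cycle genes homology region (CHR), TTTGAA, to which the DREAM and MuvB complexes bind. Searched on both strands, TTTGAA stood in 37 of the 52 members with a RefSeq promoter (71.2%), against 10.0% of all 9279 promoters. The CCAAT box also stood in 37 (71.2%), against 37.6% of all. Both motifs are counted as letters only, and no binding was measured. The windows below, 25 bases on each side of the CHR in capitals, belong to members whose large falls are described above, on build GRCh38.p14, and in TOP2A the element lies on the other strand, as TTCAAA.
CDC20, chr1:43358891-43358946, plus strand: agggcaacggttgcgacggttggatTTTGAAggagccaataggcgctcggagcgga
TOP2A, chr17:40418017-40418072, minus strand: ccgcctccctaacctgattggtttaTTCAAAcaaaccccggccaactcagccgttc
DLGAP5, chr14:55191552-55191607, minus strand: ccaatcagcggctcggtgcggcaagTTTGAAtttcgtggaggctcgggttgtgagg
NCAPG, chr4:17810919-17810974, plus strand: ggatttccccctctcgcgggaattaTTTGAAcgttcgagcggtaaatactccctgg
NUSAP1, chr15:41332869-41332924, plus strand: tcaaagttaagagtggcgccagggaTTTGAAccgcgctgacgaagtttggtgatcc

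DNA replication genes fell almost as uniformly. Of 45 measured (50 listed) 41 were lower and none higher, with a median of -1.25 (-1.19 with 9 members at their bounds), and SLBP, ORC6, E2F1 and POLE were not called. TK1, thymidine kinase, was undetected with both drugs, against 8.32, 8.49 and 8.70 with vehicle, at least 13.1-fold lower. CDC45, part of the replicative helicase, was at least 11.8-fold lower, and CDT1, which loads that helicase at origins, fell 7.06-fold, to 5.02, 4.55 and 4.67 with both drugs, where 1 of 3 arrays detected it, against 7.56, 7.50 and 7.65 with vehicle. MCM10, another helicase factor, was at least 5.78-fold lower, with its other probe at -1.05. PCNA, the sliding clamp, had a log2 difference of -1.45 (other probes -0.50 and -0.33), and E2F1, the transcription factor, differed by 0.11 (limma adjusted p = 0.645). With median scaling 38 of the 45 were called lower.

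The E2F site TTTCCCGC stood in 10 of 41 replication promoters (24.4%), against 2.62% of all 9279. The one of CDT1 is shown, with the site on the other strand as GCGGGAAA in capitals.
CDT1, chr16:88803729-88803786, plus strand: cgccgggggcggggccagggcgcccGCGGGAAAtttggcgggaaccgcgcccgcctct

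The regulators of entry into the cell cycle moved less and in both directions. Of 19 measured (22 listed) 11 fell and 3 rose, with a median of -0.32. CCND1, cyclin D1, read 9.48, 9.49 and 9.59 with both drugs against 10.44, 10.58 and 10.54 with vehicle, 2-fold lower, and its partner kinase gene CDK4 fell 2.24-fold. CDKN3, a phosphatase of the mitotic kinase CDK1, was 10.6-fold lower, and CCNG2, a cyclin made in resting cells, 2.79-fold lower. The inhibitor genes CDKN2B (p15) and CDKN1B (p27) rose by 1.5 and 0.32, and CDKN1A (p21) differed by -0.05 (limma adjusted p = 0.595). Targets of p53 were called about as often as any genes (55%, against 50.8% of all), 6 higher and 5 lower of 20 measured (25 listed). Their median of -0.03 is 0.02 with median scaling and 0.03 without replicate 2 of both drugs. TP53INP1 and SESN1, both p53 targets that FOXO factors also induce, fell 3.94-fold and 3.04-fold, while the death receptor gene TNFRSF10B rose 2.41-fold (other probes 0.19 and 1.05).

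MYC, the growth-promoting transcription factor, fell 1.49-fold, to 9.75, 9.75 and 9.88 with both drugs against 10.31, 10.47 and 10.33 with vehicle (limma adjusted p = 2.93e-05). The highest array with both drugs stayed below the lowest vehicle array. With Torin 1 alone the mean was 11.02, and with R1881 alone 9.75.

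Tubulin genes divided by isotype. TUBB, TUBA4A and TUBA1B fell, with log2 differences of -2.09, -2.88 and -1.98, while TUBA3D and TUBA3E, testis-type alpha tubulins, rose. TUBA3E read 6.75, 6.61 and 6.72 with both drugs and was undetected with vehicle, at least 3.95-fold higher. TUBA3D had a log2 difference of 2.01 and its other probe 4.24, and TUBA3C, TUBA3D and TUBA3E are near copies whose probes may not separate them. Over the whole list of actin and tubulin genes 34 of 42 were measured, 10 higher and 12 lower, or 13 higher and 11 lower with median scaling. The focal adhesion genes VCL (0.99) and TLN1 (0.96) were among those higher.

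Most histone genes rose. Of 22 measured (25 listed) 13 were higher and 5 lower, with a median of 0.70 (0.56 to 0.82 with single arrays left out). H2BC21, a histone gene whose RNA is polyadenylated, measured 11.14, 11.13 and 11.15 with both drugs against 9.70, 9.77 and 9.66 with vehicle, 2.69-fold higher. CENPA, the centromere histone, was undetected with both drugs and at least 4.79-fold lower, with its other probe at -1.25. H2AX, the DNA damage histone, fell 3.34-fold and H4C3 3.05-fold. Histone genes have near copies, and their probes may read several.

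Genes under the control of insulin, AKT and FOXO factors showed large differences in both directions. Of 35 measured (41 listed) 18 rose and 12 fell, with a median of 0.22. IRS2, the adaptor that links the insulin and IGF receptors to PI3K, stood at 9.06, 8.88 and 8.97 with both drugs against 4.85, 5.04 and 4.97 with vehicle, 16.2-fold higher (SE 0.0938 on the log2 scale, limma adjusted p = 6.35e-13). IGFBP3, a binding protein of IGF, rose 10.4-fold, and ID2, an inhibitor of differentiation factors, 8.76-fold. FBXO32, a ubiquitin ligase subunit induced by FOXO, and FOXO1 itself rose by 1.84 and 1.42. The FOXO targets SESN3, detected on 1 of 3 arrays with both drugs, and PIK3IP1 fell, with log2 differences of -1.58 and -1.53, as did TRIB1, a pseudokinase (-2.20).

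Of mTOR's own components and regulators 40 of 48 were measured, 10 higher and 18 lower, with a median of -0.14. It was -0.08 with median scaling, and -0.22 without either replicate 2 of both drugs or replicate 1 of vehicle. The MTOR probe itself read 9.35, 9.37 and 9.22 with both drugs against 7.16, 7.56 and 7.18 with vehicle, 4.02-fold higher (limma adjusted p = 4.92e-09), whereas its partner subunits RPTOR, undetected with both drugs, and RICTOR, undetected with vehicle, were not called. MLST8, which both complexes share, fell by 0.40 on the log2 scale. DEPTOR, an inhibitor of mTOR, fell 2.86-fold. SGK1, a kinase that mTORC2 activates and whose gene steroid hormones induce, measured 8.83, 8.89 and 8.97 with both drugs against 5.27, 5.10 and 5.08 with vehicle, 13.4-fold higher. EIF4EBP1, the translation repressor that mTORC1 phosphorylates, fell 1.79-fold.

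Genes for protein folding in the endoplasmic reticulum rose together. Of 46 measured (51 listed) 37 were higher, against 22.7% of all genes, and 2 were lower, DDIT3 (-0.33) and SEL1L, which was undetected with both drugs and at least 1.41-fold lower. The median was 0.71. AGR2, a member of the protein disulphide isomerase family, had 9.35, 9.26 and 9.22 with both drugs against 4.79, 4.70 and 4.97 with vehicle on the probe used, 22-fold, but its other kept probe gave a log2 difference of 0.23. PDIA5, another disulphide isomerase, read 9.55, 9.51 and 9.59 with both drugs and 7.2, 7.22 and 7.40 with vehicle, 4.84-fold higher. EDEM3, which trims the sugars of misfolded proteins, and CREB3L2, a transcription factor of secretory cells, rose 4.05-fold and 3.09-fold. The main chaperone gene HSPA5 differed by 0.09 (limma adjusted p = 0.397) and XBP1 by 0.04, neither called.

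Secretory transport and glycosylation genes followed, with 43 higher and 6 lower of 61 measured (67 listed) and a median of 0.47. UAP1, which makes the sugar donor UDP-GlcNAc, stood at 10.82, 10.82 and 10.80 with both drugs against 8.56, 8.6 and 8.48 with vehicle. The COPII coat gene SEC24B rose 3.03-fold and GOLM1, a Golgi membrane protein, 3.04-fold. ST6GALNAC1, a sialyltransferase, was undetected with vehicle and at least 4.85-fold higher.

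The ER stress response element, CCAAT followed after 9 bases by CCACG, stood in 7 of 43 promoters of the folding list (16.3%), against 0.151% of all 9279, which is 14 promoters. The letters CCAAT at its start are the CCAAT box. The 7 genes were picked for this sequence after the values were seen, and 3 of them, HSP90B1 (0.48), CALR (0.29) and CRELD2 (0.78), were called higher. HSPA5, CANX, XBP1 and ERO1B were not called. A called gene and 2 that were not are shown, with the element in capitals. In CRELD2 it lies on the other strand, as CGTGG followed after 9 bases by ATTGG.
CRELD2, chr22:49918529-49918597, plus strand: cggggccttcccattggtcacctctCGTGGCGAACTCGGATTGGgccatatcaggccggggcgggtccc
HSPA5, chr9:125241366-125241434, minus strand: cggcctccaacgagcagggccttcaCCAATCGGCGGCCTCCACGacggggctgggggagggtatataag
XBP1, chr22:28800578-28800646, minus strand: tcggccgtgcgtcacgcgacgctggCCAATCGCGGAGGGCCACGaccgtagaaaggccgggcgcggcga

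**Figure D3:**
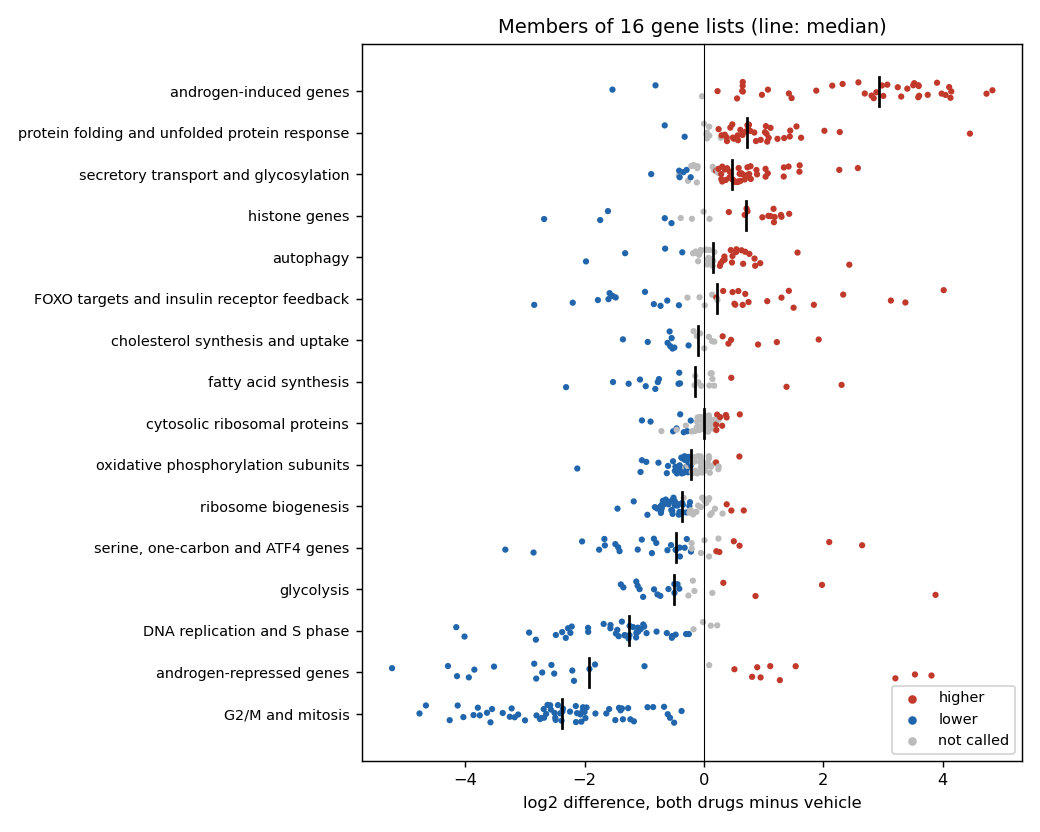
Log2 difference between both drugs and vehicle (horizontal axis) of the measured members of the larger gene lists, a point for each gene and a line at the list's median. All 63 mitosis genes lie below 0, androgen-induced genes centre on 2.94, and cytosolic ribosomal proteins crowd around 0.00.

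Glycolysis genes fell along the pathway while their glucose transporter rose. Of 22 measured (25 listed) 14 were lower and 4 higher, with a median of -0.50. LDHA, lactate dehydrogenase, read 10.92, 10.86 and 11 with both drugs against 12.30, 12.30 and 12.35 with vehicle, 2.63-fold lower (other probes -1.18 and -0.38). TPI1 and GAPDH, consecutive enzymes of the pathway, fell 2.55-fold and 2.20-fold, and PKM, pyruvate kinase, had a log2 difference of -1.08. SLC2A3, the high-affinity glucose transporter GLUT3, was undetected with vehicle and at least 10.8-fold higher, and PFKFB2, which makes the activator of phosphofructokinase, rose 3.94-fold over a vehicle level that 2 of 3 arrays detected. The other transporter gene, SLC2A1, differed by 0.14 and was not called.

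Further into energy metabolism the differences were smaller. The TCA cycle list had 16 lower and 3 higher of 25 measured (28 listed, median -0.32). MDH2, malate dehydrogenase, read 10.94, 10.39 and 10.03 with both drugs against 11.65, 11.66 and 11.27 with vehicle, and PDHA1, a pyruvate dehydrogenase subunit, 6.46, 5.43 and 5.05 against 7.40, 6.62 and 6.23, where the groups overlap. Without 1 vehicle array (replicate 1) PDHA1 was no longer called (limma adjusted p = 0.0539). MPC2, a subunit of the mitochondrial pyruvate carrier, rose 2.55-fold, and its partner MPC1 fell by 0.68 on the log2 scale. Among 70 measured subunits of oxidative phosphorylation (76 listed) 34 were lower, 2 higher and 34 not called, with a median of -0.21. With median scaling 23 were lower and the median was -0.10. CYC1, cytochrome c1, fell 2.09-fold, and NDUFB4, of complex I, 4.36-fold, though its other probe gave -0.14.

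Serine synthesis and other targets of the stress factor ATF4 fell. Of 35 measured (41 listed) 23 were lower and 6 higher, with a median of -0.47. PSAT1, the aminotransferase of serine synthesis, stood at 7.83, 7.82 and 7.91 with both drugs against 10.67, 10.82 and 10.64 with vehicle, 7.25-fold lower (limma adjusted p = 1.92e-12). The enzymes before and after it, PHGDH and PSPH, had log2 differences of -2.04 and -1.76, and ASNS, asparagine synthetase, of -1.67. DDIT4, an inhibitor of mTORC1, read 6.60, 6.60 and 6.73 with both drugs against 9.98, 9.93 and 10.01 with vehicle. ATF4's own RNA differed by 0.08 and was not called. SLC38A2, an amino acid transporter, and VLDLR, a lipoprotein receptor, rose 4.28-fold and 6.27-fold.

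Lipid synthesis genes ended near their vehicle levels as lists, with single members far from them. For cholesterol 9 were lower and 6 higher of 22 measured (29 listed, median -0.09, and -0.03 with median scaling or -0.15 without replicate 1 of both drugs). SCAP, the escort protein of SREBP, measured 11.41, 11.51 and 11.46 with both drugs against 9.49, 9.53 and 9.59 with vehicle, 3.79-fold higher. INSIG1, which holds SCAP back in the endoplasmic reticulum, fell 1.41-fold, TM7SF2, a sterol reductase, fell 2.57-fold, and SC5D, a sterol desaturase, rose 2.33-fold. For fatty acids 11 were lower and 3 higher of 23 measured (28 listed, median -0.16, or -0.10 without vehicle replicate 3). FASN, fatty acid synthase, read 12.38, 12.34 and 12.59 with both drugs and 12.41, 12.56 and 12.48 with vehicle, overlapping (log2 -0.05, SE 0.0892, limma adjusted p = 0.679; 0.11 with median scaling, also not called). The elongases differed among themselves: ELOVL6 fell 4.97-fold, ELOVL5 rose 2.61-fold, and ELOVL7, undetected with vehicle, rose at least 4.26-fold.

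The sterol regulatory element TCACNCCAC stood in 1 of 20 promoters of the cholesterol list (5.0%), against 1.12% of all, and the ATF4 site TGATGNAAT in 1 of 29 of the serine and ATF4 list (3.45%), against 0.485% of all.

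Polyamine genes were 10 higher and 3 lower of 21 measured (23 listed, median 0.22). Without replicate 1 of both drugs the median was 0.11. Besides ODC1, spermine synthase SMS rose 3.91-fold, to 12.08, 12.01 and 11.98 with both drugs against 10.01, 10.08 and 10.08 with vehicle. SAT1, an acetyltransferase that acts on spermidine and spermine, rose 7.76-fold. The spermidine synthase gene SRM fell by 0.45 on the log2 scale.

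Genes that build ribosomes fell, while those of the ribosomal proteins themselves mostly stayed uncalled. Of 54 measured biogenesis genes (60 listed) 32 were lower and 3 higher, with a median of -0.36. IMP4, of the small subunit processome, stood at 9.37, 9.34 and 9.18 with both drugs against 10.37, 10.25 and 10.12 with vehicle, 1.93-fold lower, and WDR12, which matures the large subunit, fell 1.77-fold. NOP2, an rRNA methyltransferase, read 6.81, 7.88 and 6.36 with both drugs against 8.71, 7.78 and 8.09 with vehicle, where the groups overlap, and its other probes gave -0.56 to -0.15. Among 68 measured ribosomal protein genes (78 listed) 8 rose, 8 fell and 52 were not called. Their median was 0.00 with quantile normalization and 0.13 with median scaling, by which 17 were higher and 5 lower. RPL23 rose 1.52-fold and RPL29 fell 1.86-fold, and many such genes have processed copies that a probe may also read. Translation factors had 12 lower and 7 higher of 46 measured (47 listed, median -0.12), or 7 lower and 8 higher with median scaling (median -0.03). As reported, 41.3% of them were called, against 50.8% of all genes. EEF2K, the kinase that slows elongation, was 1.93-fold higher.

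Autophagy genes leaned upward, and lysosomal genes did not lean either way. Of 41 measured autophagy genes (44 listed) 19 rose and 4 fell, with a median of 0.15 (0.29 with median scaling). WIPI1, which recruits proteins to the forming autophagosome, read 7.57, 7.29 and 7.41 with both drugs against 4.94, 5.01 and 5.02 with vehicle, 5.41-fold higher, and ATG101, of the ULK1 complex, rose 2.96-fold. MAP1LC3B and ULK1 rose by 0.76 and 0.47, SQSTM1 differed by 0.08 and was not called, and ATG3, the LC3-conjugating enzyme, gave -1.32 on the probe used and -0.16 on the other. Of 50 measured lysosomal genes (62 listed) 19 fell and 12 rose, with a median of 0.04 (0.01 without vehicle replicate 1). That is 62% called, against 50.8% of all genes. NPC1, the lysosomal cholesterol exporter, rose 3.16-fold, and GLA, alpha-galactosidase, fell 3.76-fold.

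Stress lists gave mixed counts. Hypoxia genes had 9 higher and 12 lower of 30 measured (34 listed), and their median of -0.04 is 0.08 with median scaling, 0.02 without vehicle replicate 1 and -0.16 without vehicle replicate 3. Members that rose most, NDRG1, SLC2A3 and ANKRD37 (8.64-fold), stood beside members that fell, among them CA12, a carbonic anhydrase (-2.03, other probe -0.76). Heat shock chaperones had 11 lower and 1 higher of 26 measured (31 listed, median -0.20), and 7 of those lower were subunits of the cytosolic chaperonin, from CCT5 (-0.74) to CCT7 (-0.32). Interferon-responsive genes had 10 lower and 7 higher of 24 measured (37 listed, median -0.14, with -0.09 under median scaling and -0.22 without vehicle replicate 1). The share called was 70.8%, against 50.8% of all genes. MX1, an antiviral GTPase, fell 2.61-fold, with 1 of 3 arrays with both drugs above background. B2M, the light chain of MHC class I, measured 11.24, 11.10 and 11.37 with both drugs against 9.57, 9.47 and 9.49 with vehicle, 3.31-fold higher.

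BMP and TGF-beta genes were 10 higher and 7 lower of 24 measured (42 listed), with a median of -0.03 that has no stable sign, at 0.03 without vehicle replicate 2 and -0.07 without vehicle replicate 3. Receptor gene BMPR1B rose 5.40-fold (other probe 1.10) and ID1 by 2.33 (other probe 0.56), whereas ID3 fell by 0.42 on the log2 scale. Of 25 measured ERK feedback and early genes (33 listed) 8 rose and 4 fell, with a median of 0.20 (0.13 without vehicle replicate 1). That is 48% called, no more than the 50.8% of all genes. EGR1, an immediate early transcription factor, read 6.92, 6.76 and 6.63 with both drugs against 5.15, 5.35 and 5.07 with vehicle, 2.99-fold higher. FOS, its companion, was undetected with vehicle and at least 2.07-fold higher. On the list of stress and RNA quality genes 6 rose and 4 fell of 12 measured (15 listed), among them HMOX1, heme oxygenase (0.73), and their part in these results was not tested.

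Cofactors of steroid receptors were measured for 16 of 29 genes, 4 higher and 7 lower (median -0.20, or -0.13 with median scaling). GRHL2, an epithelial transcription factor, rose 3.09-fold, HOXB13, a prostate homeobox factor, fell 1.62-fold, and the corepressor CTBP1 had a log2 difference of -2.31 on the probe used and of -0.87 and -0.79 on the others. FOXA1, a factor that opens chromatin, rose by 0.36.

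Markers of the luminal epithelium were detected and those of other cell types mostly were not. Of 21 luminal genes 15 were measured, 5 higher and 3 lower, with a median of 0.07 (-0.02 to 0.13 with single arrays left out). That is 53.3% called, against 50.8% of all genes. Among the 3 that fell, ELF3 had a log2 difference of -1.12. The luminal keratin gene KRT8 read 11.17, 10.94 and 11.02 with both drugs against 8.50, 8.64 and 8.43 with vehicle, 5.73-fold higher. Its partner KRT18 stood at 8.65, 8.75 and 8.96 with both drugs against 7.08, 7.34 and 7.29 with vehicle, 2.93-fold higher, and EPCAM differed by -0.18 and was not called. Of 12 basal genes only ITGA6 and ITGB4 passed the detection filter, of 13 immune genes PTPRC and CD68, and of 17 stromal genes 5, and in these 3 lists S100A4 alone was called, undetected with both drugs and at least 1.11-fold lower. With median scaling it was not called (limma adjusted p = 0.0629). VWF was the sole measured member of 7 endothelial genes and fell 4.34-fold. Of 28 neuroendocrine genes 6 were measured, and DDC, ENO2 and TUBB3 fell while SYT4 and UCHL1, undetected with vehicle, rose (UCHL1 at least 1.42-fold).

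To see what the second drug added, both drugs were also compared with each drug alone. Against R1881 alone 5233 genes (45.4%) were called, 2662 higher (23.1%) and 2571 lower (22.3%), and against Torin 1 alone 5188 (45%), 2157 higher (18.7%) and 3031 lower (26.3%). With median scaling there were 2419 higher and 2494 lower against R1881, and 2457 higher and 2347 lower against Torin 1, so in both the larger side changed. At least 1.5-fold differences were called in 1917 genes (16.6%) against R1881 and in 2033 (17.7%) against Torin 1. For 42 androgen-induced genes the median log2 difference was 0.31 between both drugs and R1881, with 23 higher and 7 lower, and 2.64 between both drugs and Torin 1, with 37 higher and 3 lower. For 63 mitosis genes it was -2.07 against R1881, with 61 lower, and -0.02 against Torin 1, with 5 higher and 6 lower. Of these 63 genes 29 were undetected with both drugs, so for them the difference from Torin 1 rests in part on levels at the background.

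Other lists had medians outside those of both single treatments. Set against the same vehicle arrays, the medians of the folding list were 0.71 with both drugs, 0.39 with R1881 and 0.00 with Torin 1. For ribosome biogenesis they were -0.36 with both drugs, 0.03 with R1881 and -0.07 with Torin 1, and against each drug alone 37 and 38 of its 54 genes were lower. For the serine and ATF4 list they were -0.47 with both drugs, -0.13 with R1881 and -0.05 with Torin 1, and for glycolysis -0.50 with both drugs, 0.10 with R1881 and -0.23 with Torin 1. Cholesterol genes lay between, at -0.09 with both drugs, 0.38 with R1881 and -0.91 with Torin 1.

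**Figure D4:**
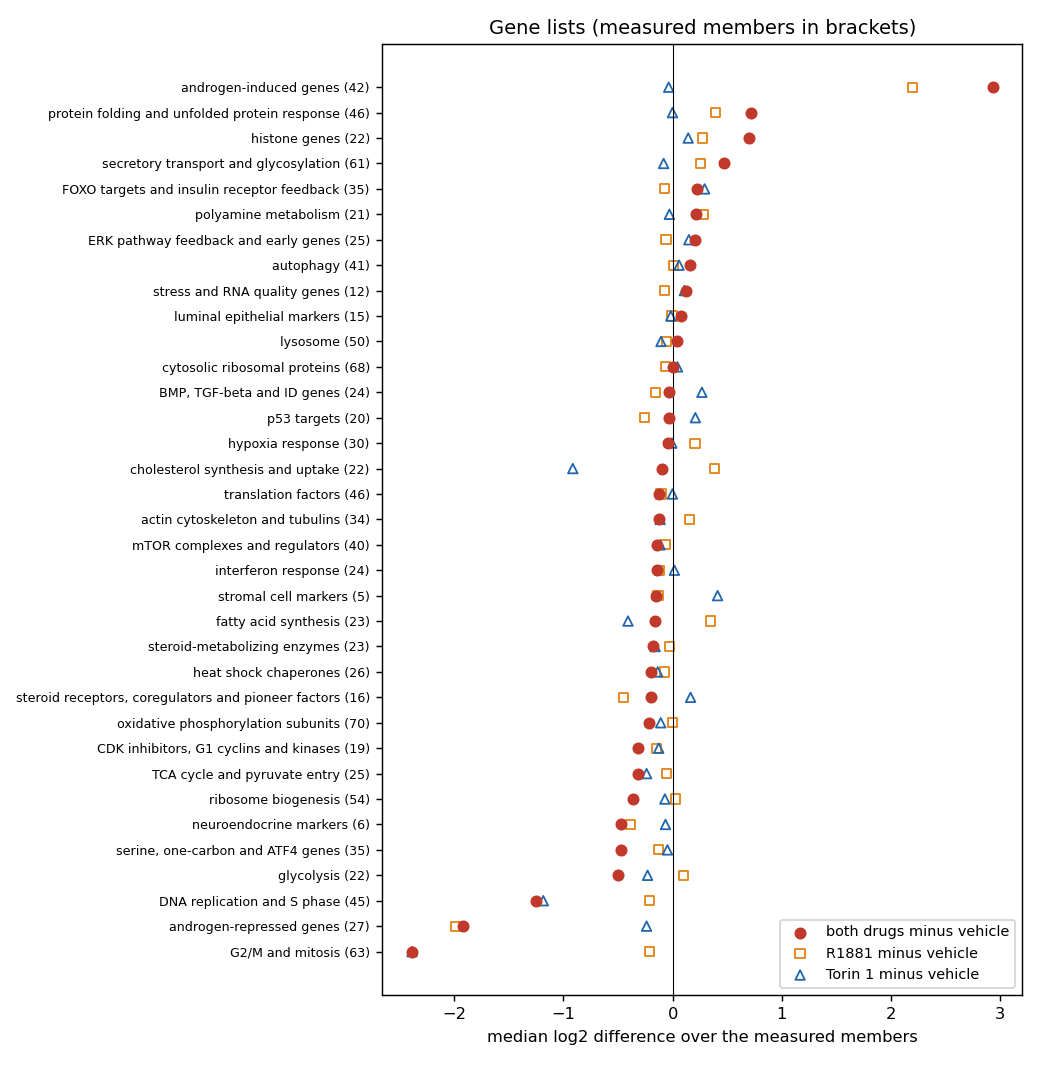
Median log2 difference from vehicle (horizontal axis) over the measured members of each list with at least 5 of them, for both drugs, R1881 alone and Torin 1 alone, all against the same vehicle arrays. The mitosis point of both drugs (-2.39) lies on that of Torin 1 (-2.38), and the androgen-induced point (2.94) lies beyond that of R1881 (2.19). Of the 63 mitosis genes 29 were undetected with both drugs, so their levels there lie at the background.

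The test of whether the drugs add on the log2 scale is the interaction, the R1881 response with Torin 1 minus that without it. It was called in 1722 genes (15%), 906 positive (7.87%) and 816 negative (7.09%; 692 and 697 without vehicle replicate 3), and in 831 (7.22%) it was at least 1.5-fold. Of 42 androgen-induced genes 20 were positive and 6 negative, of 46 folding genes 11 positive and none negative, of 35 serine and ATF4 genes 3 positive and 18 negative, and of 54 biogenesis genes 1 positive and 15 negative. The means of DDIT4 were 6.64 with both drugs, 9.56 with R1881, 8.55 with Torin 1 and 9.97 with vehicle. PSAT1 stood at 7.85 with both drugs, 9.66 with R1881, 10.56 with Torin 1 and 10.71 with vehicle. For INSIG1 the means were 10.51 with both drugs, 11.55 with R1881, 8.22 with Torin 1 and 11.01 with vehicle, so its level with both drugs lay nearer to vehicle than that with Torin 1 alone. FOS was at 5.75 with both drugs, 4.33 with R1881, 4.47 with Torin 1 and 4.32 with vehicle.

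**Figure D5:**
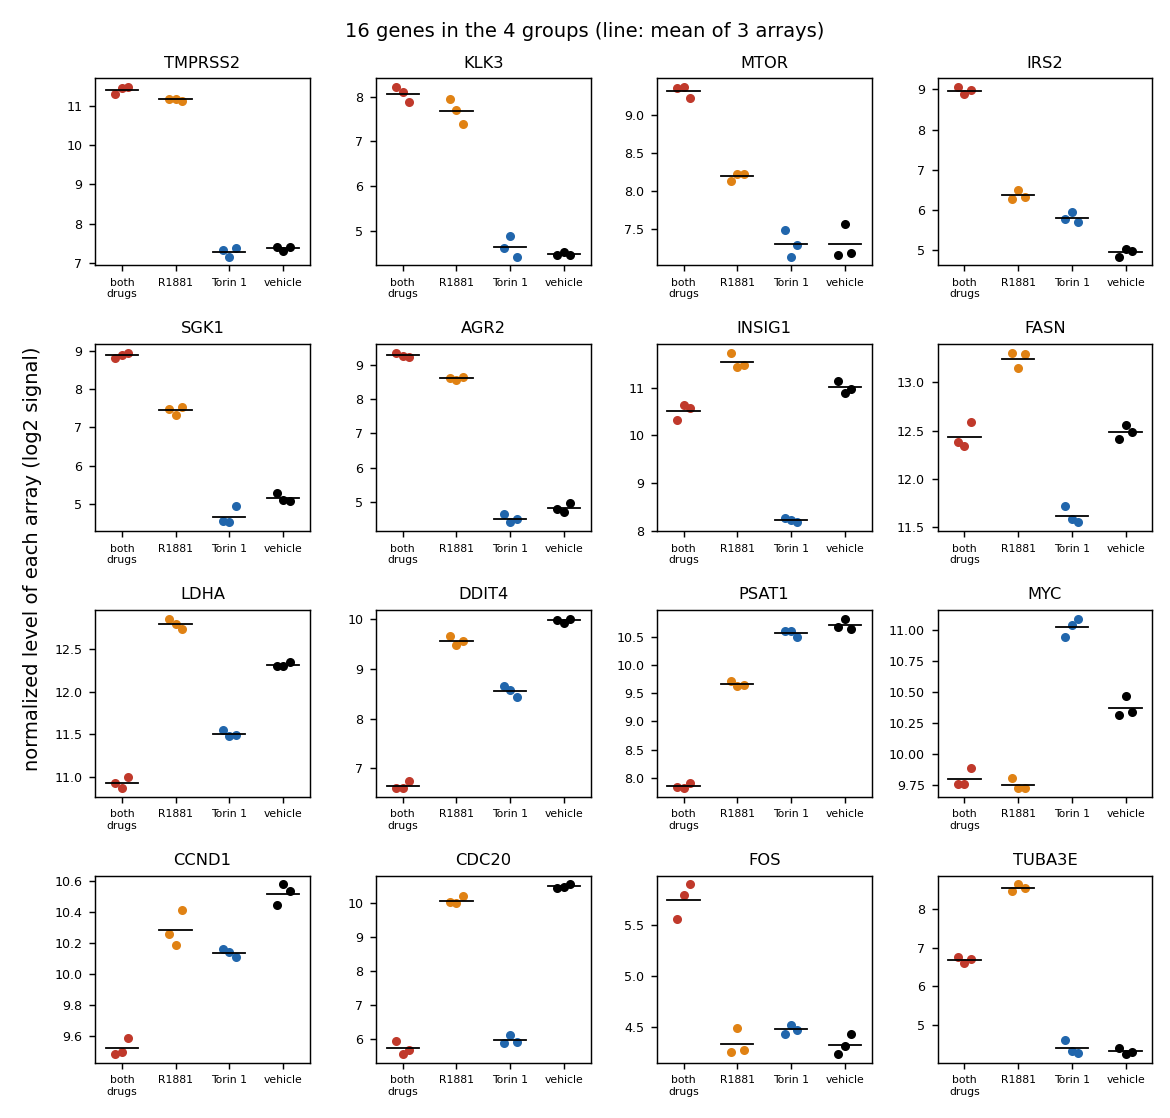
Level on each array (vertical axis, log2 signal, a scale of its own for each gene) with both drugs, R1881, Torin 1 and vehicle, the line marking the mean of 3 arrays. FOS stands apart with both drugs (5.75), MTOR is higher with both drugs (9.31) than with R1881 (8.19), and CDC20 is low wherever Torin 1 is present.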

How the data were processed

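RNA of LNCaP cells was purified, biotin-labelled and applied to 12 Illumina HumanHT-12 V4 arrays, 3 per group, grouped by the labels. The deposited signal table holds an intensity for each of 47323 probes, with no background subtraction and no normalization between arrays, as its values show. Per the file headers a detection p-value stands beside each signal, in steps that give 770 control beads. The authors' processed table holds log2 values with nearly equal medians (6.187 to 6.217); the sources used here do not state its normalization, and it served as an alternative. Each of its 12 columns matched its own array best (r of at least 0.9742).

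The signals were background-corrected with limma 3.58.1 in R 4.3.3 (normexp, background from the detection p-values, offset 16), then quantile-normalized between arrays as log2 values. Probes with a detection p under 0.05 on at least 3 of 12 arrays were kept (20413), and 15137 of them had 1 gene symbol in the probe table given, 5274 none and 2 several. The probe with the highest mean stood for its gene, which gave 11517 genes. Another kept probe is quoted where it differs by more than 1 on the log2 scale. One limma model with 4 group means and 8 residual degrees of freedom was fitted to all 12 arrays, with Benjamini-Hochberg adjustment over all genes. Where a probe was detected on no array of a group, the fold was taken against the lowest level of a detected probe, or the probe's own level where that is higher, array by array, and is a lower bound. The smallest two-sided p of an exact permutation test on 3 against 3 arrays is 0.1, and none was run.

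The comparison and the 38 gene lists were chosen with earlier results of these data known. Named genes are the 15 largest rises and falls among called genes whose arrays do not overlap, up to 4 called members with the largest difference in each list, and 14 fixed genes, not all of which are reported here. Other genes named were chosen after their values were seen. The fit was tested on simulated data. The number of arrays limits the precision: the median SD of a gene was 0.11 with both drugs and 0.106 with vehicle. Alternatives were other normalizations, backgrounds, filters and probe summaries, the authors' table, a replicate block and single arrays left out. Array medians of signal lay between 103.8 and 104.6 with both drugs and between 96.39 and 101.4 with vehicle. No 2 arrays held identical values. Promoter sequences are RefSeq's, of build GRCh38.p14.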

Additional observations from a re-analysis of the deposited data

Results flagged for a closer look

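The interaction, the R1881 response with Torin 1 minus that without it on the log2 scale, was tested for 39 genes named by the rule, and 26 passed limma's adjusted p of 0.05, 21 positive and 5 negative. Because 30 of the 39 were picked for their difference between both drugs and vehicle, which is a term of the interaction, these counts and signs describe the genes and are not set against all genes. Among the genes that rose most, it was 2.6 for NCAPD3, 2.52 for ANGPT2, 2.43 for NBL1, 1.78 for PTGER4, 1.52 for TRIM51, 1.47 for TRIM48, 1.36 for TRIM49D1, 1.27 for HPGD, 1.16 for TRIM49D2, 1.14 for GRM5P1, 0.981 for AGR2, 0.898 for MERTK and 0.444 for FKBP5. For KLK2 it was -0.44. NBL1, ANGPT2, TRIM49D1, HPGD, GRM5P1 and TRIM49D2 were detected neither with vehicle nor with Torin 1, so those values rest in part on levels at the background. The same holds for KLK2, TRIM48 and AGR2, each undetected in 1 group.

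Among genes that fell most, the interaction was 0.919 for TGM3, 0.74 for CAMK2N1, 0.606 for TOP2A, 0.334 for NCAPG, -0.419 for MELK and -0.803 for BCHE. NCAPG was undetected with both drugs and with Torin 1 alone, and TOP2A with both drugs. Of the fixed genes, IRS2 and INSIG1 both had 1.75, MTOR 1.12, ODC1 0.504, CCND1 -0.382 and MYC -0.609. For IRS2 the means were 8.97 with both drugs, 6.37 with R1881, 5.81 with Torin 1 and 4.95 with vehicle. For MTOR they were 9.31 with both drugs, 8.19 with R1881, 7.30 with Torin 1 and 7.30 with vehicle.

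Probes without a gene symbol were outside every comparison above. Of 5274 such probes that passed the detection filter 1585 (30.1%) were called between both drugs and vehicle, 889 higher and 696 lower, against 47.7% of kept probes with a symbol. The largest, probe ILMN_1663787, had a mean of 10.2 with both drugs and 4.94 with vehicle.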

How the results depend on the processing

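The number of genes called between both drugs and vehicle lay between 5292 and 6016 under every alternative, and none of the 148 named genes called changed direction. The split between directions did depend on scaling: 3139 higher and 2877 lower with median scaling (2613 and 3238 as reported), and 2457 higher and 2347 lower against Torin 1 (2157 and 3031). FASN, not called, lay between -0.13 and 0.11. The size of differences depended on the background setting: genes called with at least a 1.5-fold difference numbered 2619 for both drugs against vehicle, and 1291 without background correction, 1743 with offset 50 and 1487 in the authors' table. For both drugs against R1881 (1917) they were 767, 1158 and 950 under those settings, for both drugs against Torin 1 (2033) 928, 1324 and 1140, and for the interaction (831) 280, 455 and 374. A larger offset, or none subtracted, shrinks log2 differences of dim probes by construction. Leaving out single arrays gave 5292 to 5475 called genes against vehicle (2599 to 2667 at 1.5-fold), 4677 to 4887 against R1881, 4583 to 4780 against Torin 1 and 1346 to 1539 for the interaction. Under the alternatives, list medians moved by less than the spread between arrays 390 times and by more 170 times, and none with a median beyond that spread changed sign. Of 149 named genes 148 were called, and 146 of those stayed called under all 16 alternatives; the exceptions were PDHA1 without vehicle replicate 1 (adjusted p = 0.0539) and S100A4 with median scaling (0.0629). The replicate numbers are shared between groups, but arrays of the same number did not deviate together on average (mean r -0.00318, other pairs 0.00155). Pairs of both drugs and vehicle had r of 0.017, -0.0511 and 0.11. With 3 arrays per group this cannot show whether arrays of the same number were handled together. With a replicate block 5778 genes were called. Genes near or below background in a group have no measured fold, which limits 142 rises and 375 falls.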

Other observations

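Genes outside the lists also differed by large amounts, and the following were chosen after their values were seen. The transcription factor gene KLF4 rose by 3.21 on the log2 scale over a vehicle level that 2 of 3 arrays detected, with its other probe at 1.22, and SNAI2 was undetected with vehicle and at least 6.41-fold higher (other probe 1.54). MYB, another transcription factor gene, was undetected with both drugs and at least 4.77-fold lower. INPP4B, a phosphatase that removes a product of PI3K, stood at 8.01, 8 and 8.03 with both drugs against 4.76, 4.33 and 4.73 with vehicle, where 2 of 3 arrays detected it. GADD45G, a growth arrest gene, read 11.26, 11.30 and 11.48 with both drugs against 7.88, 7.86 and 7.86 with vehicle, 11.2-fold higher (limma adjusted p = 8.40e-13). ABCA1, the pump that exports cholesterol from cells, was undetected with both drugs, against 6.90, 7.10 and 7.03 with vehicle, at least 4.65-fold lower.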
